A study of Homo sapiens with 6 samples.

Results

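The insulin-like growth factor (IGF) system was followed through 10 genes: the receptors IGF1R and INSR, the adaptors IRS1 and IRS2, and the binding proteins IGFBP2, IGFBP3, IGFBP4, IGFBP5, IGFBP6 and IGFBP7. A gene was taken when a probe set of the array was annotated to it and to no other gene, and of several such probe sets the one brightest over the 6 arrays was used. This gave values for 9 of the 10 genes, among 18417 genes measured in the same way. IGFBP6 was annotated only on a probe set that also carries another gene and has no value here.

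IGF1R and INSR are receptor tyrosine kinases for the IGFs and for insulin. IRS1 and IRS2 dock on the activated receptors and pass the signal to phosphoinositide 3-kinase and AKT. The IGFBPs are secreted carriers that bind IGFs outside the cell and can withhold them from the receptor or release them after proteolysis. IGFBP7 is a relative with low affinity for IGFs that is secreted by many mesenchymal and vascular cells. In lung cancer cells the pathway is known as a source of survival signals.

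RNA came from H358, an established human line derived from a non-small cell lung carcinoma. TwistER cells (3 arrays) carried a stably expressed TwistER construct, the kind of fusion that joins a Twist transcription factor to the estrogen receptor's ligand-binding part. GFP cells (3 arrays) stably expressed green fluorescent protein. Both lines received 100 nM 4-hydroxytamoxifen (4OHT) for 12 days, in medium with serum, and the titles place the GFP arrays before and the TwistER arrays after epithelial-mesenchymal transition. The promoter of the constructs, and whether each line was a clone or a pool, is information not given in the sources used here. All arrays came from 4OHT-treated cells, so activation of TwistER and any other difference between the 2 lines cannot be told apart. Each value is the deposited log2 expression of a probe set. Each difference is TwistER minus GFP on that scale, with limma's SE and a p-value adjusted over the 18417 genes. The words rose and fell are kept for an adjusted p under 0.05.

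The epithelial label of the parent line held in the GFP arrays, where EPCAM read 12.39, 11.90 and 11.88, against 8.69, 8.90 and 8.74 in the TwistER arrays. CDH1, which encodes E-cadherin, read 4.93, 5.06 and 5.30 in TwistER and 9.53, 10.35 and 10.38 in GFP. Of 9 measured epithelial markers 7 fell and 0 rose (8 lower and 0 higher at an unadjusted p under 0.05 in limma). GFP replicate 1 stood apart: it correlated with the other GFP arrays at r = 0.983 and 0.982 over genes, while those correlated with each other at r = 0.996. Without this array all 9 measured epithelial markers fell. Values without it are also given for other results, mainly those that it moves by over 1.5 times or whose call it changes.

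IGFBP7 and IGFBP4 transcripts were more abundant in TwistER cells, by 4.92-fold and 1.63-fold, and no receptor or adaptor passed the test. Of the 9 measured genes 2 rose, against 4.72% of all genes, and 0 fell, against 4.11% of all genes. Both that rose were among the 5 measured binding proteins. At an unadjusted p under 0.05 in limma, 3 of the 9 were higher and 0 lower. The share of all genes at that unadjusted threshold was not counted, so such counts, here and for the lists, have no background beside them. The values of the 3 TwistER arrays lay above all 3 GFP arrays in 4 of the 9 genes, against 13.9% of all genes, and in 0 of the 9 they lay below, against 14.5% of all genes. The median difference was 0.19 over the 9 genes and 0.0063 over all genes. Without GFP replicate 1 the same 2 genes rose and 0 fell, where 6.97% of all genes rose and 8.09% fell.

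**Figure D1:**
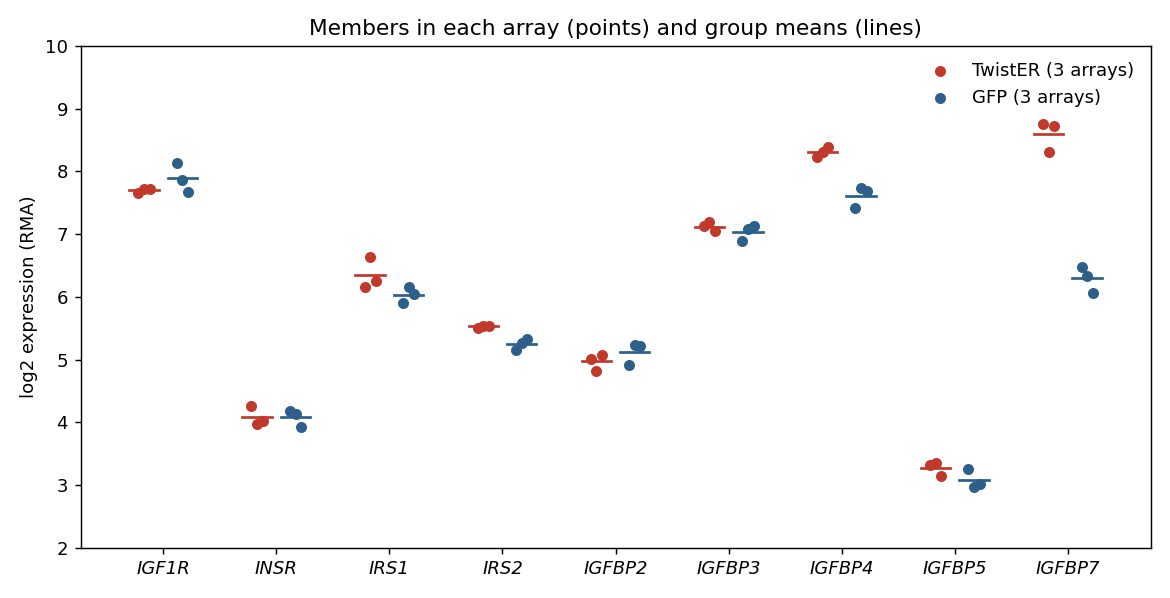
Log2 expression (vertical axis) of the 9 measured genes in each of the 3 TwistER arrays (red) and 3 GFP arrays (blue), with lines at the group means. IGFBP7 and IGFBP4 show clear gaps between the groups, and IRS1 and IRS2 small ones. Levels of different genes come from different probes and are not comparable with each other.

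IGFBP7 had the largest difference of the 9 genes. It read 8.75, 8.31 and 8.72 in the TwistER arrays, against 6.48, 6.34 and 6.06 in the GFP arrays. Every TwistER array thus lay well above every GFP array, and the gap between the groups was several times the spread within either. The means were 8.59 ± 0.25 in TwistER and 6.29 ± 0.21 in GFP (SD, n = 3 each). The log2 difference was 2.30 ± 0.16 (SE, 95% interval 1.93 to 2.67), with a limma adjusted p of 8.08e-05. IGFBP7 had rank 31 among the differences of all 18417 genes, counted from the highest. With each array left out in turn, the IGFBP7 difference stayed between 2.18 and 2.44, and the highest adjusted p was 0.00133.

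IGFBP4, a carrier known mainly for inhibiting IGF action until the protease PAPPA cleaves it, also rose. It read 8.23, 8.31 and 8.39 in the TwistER arrays, against 7.41, 7.73 and 7.68 in the GFP arrays. The groups did not overlap, and GFP replicate 1 was the lowest array, 0.30 below the mean of the other GFP arrays. The log2 difference was 0.70 ± 0.12 (SE, 95% interval 0.42 to 0.98), with a limma adjusted p of 0.00880. It was 0.60 without GFP replicate 1, and the highest adjusted p with any array left out was 0.0479, without TwistER replicate 2.

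Both IGFBP7 and IGFBP4 are genes that fibroblasts and vascular cells also express, so markers of those cells are given beside them. Of 12 fibroblast markers 5 rose and 1 fell (5 higher and 1 lower at an unadjusted p under 0.05 in limma). Their median difference was 0.17. The mean log2 level of the list was 4.92 to 4.93 in the TwistER arrays and 4.57 to 4.66 in the GFP arrays. COL3A1, a fibrillar collagen, rose by a log2 difference of 2.13 ± 0.15, and COL1A1 by 0.54 ± 0.13. The COL1A1 call was lost in 5 of the 6 fits that left out an array, all but the one without GFP replicate 1. PDGFRA, DPT and S100A4 were the other fibroblast markers that rose, named after their values were seen. The PDGFRA call held with any array left out, the S100A4 call was lost without TwistER replicate 1, and the DPT call when any 1 TwistER array or GFP replicate 2 was left out. The proteoglycan LUM fell, reading 6.07, 6.12 and 5.81 in TwistER and 8.01, 7.32 and 7.54 in GFP. COL1A2, PDGFRB, THY1, FAP and POSTN, named after their values were seen, did not pass. Their differences ran from -0.25 (FAP) to 0.29 (POSTN).

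The fibroblast proteoglycan DCN stayed near the bottom of the scale, at 2.43, 2.48 and 2.22 in TwistER and 2.27, 2.48 and 2.36 in GFP. Of 8 endothelial and blood cell markers 2 rose and 0 fell (2 higher and 0 lower at an unadjusted p under 0.05 in limma). The list's mean log2 level was 4.65 to 4.76 in TwistER and 4.24 to 4.30 in GFP. PECAM1, an endothelial adhesion molecule, rose by 0.61 ± 0.12, and the VEGF receptor KDR, named after its values were seen, rose by 1.79 ± 0.12. The endothelial markers CDH5 and VWF, also named after their values were seen, did not pass, with differences of -0.06 ± 0.14 and 0.05 ± 0.14. The PECAM1 call was lost without TwistER replicate 1, TwistER replicate 3 or GFP replicate 2, and the KDR call held with any array left out. PTPRC, the leukocyte antigen CD45, read 4.29, 4.42 and 4.47 in TwistER and 4.45, 3.76 and 4.07 in GFP, and did not pass (adjusted p = 0.377), though it passed without GFP replicate 1 (0.0407). The part of such cells in the IGFBP7 and IGFBP4 values was not tested. In bulk RNA of a culture, more expressing cells and more RNA per cell cannot be told apart.

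**Figure D2:**
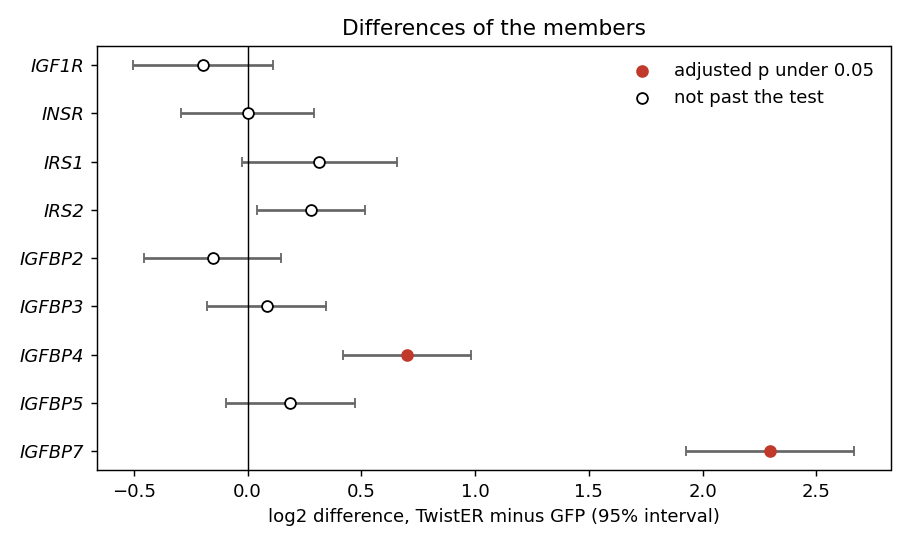
Log2 differences, TwistER minus GFP, of the 9 measured genes with 95% intervals (n = 3 arrays per group). IGFBP7 (2.30) and IGFBP4 (0.70) passed the test (filled), and the intervals of all genes but IGFBP7 stayed within 1 log2 unit of 0.

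The remaining binding proteins did not pass. IGFBP3, the main IGF carrier of serum, read 7.12, 7.19 and 7.04 in TwistER and 6.89, 7.09 and 7.13 in GFP. The groups overlapped, and the difference of 0.08 ± 0.11 had a 95% interval of -0.18 to 0.35 (limma adjusted p = 0.754). Without GFP replicate 1 the IGFBP3 difference was 0.0095. IGFBP2, a carrier often raised in tumours, read 5.01, 4.82 and 5.08 in TwistER and 4.92, 5.24 and 5.21 in GFP, a difference of -0.15 ± 0.13 (limma adjusted p = 0.588). The groups overlapped here too, with the lowest GFP array inside the TwistER range. The IGFBP2 difference was -0.26 without GFP replicate 1, -0.08 without TwistER replicate 2 and -0.10 without GFP replicate 2, and it passed in none of these.

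IGFBP5, a carrier that binds extracellular matrix, was dim in both lines. It read 3.31, 3.34 and 3.14 in TwistER and 3.26, 2.96 and 3.01 in GFP, a difference of 0.19 ± 0.12 (limma adjusted p = 0.456). Its mean lay at percentile 10.3 of all genes, where background light compresses differences. IGFBP2 and IGFBP5 are neighbours on chromosome 2, and IGFBP3 lies beside IGFBP1, a carrier outside the 10 genes, on chromosome 7. IGFBP1 did not pass either, with 5.06, 5.45 and 5.34 in TwistER and 5.21, 5.34 and 5.20 in GFP.

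The stretches around the annotated start sites of IGFBP4, which rose, and of IGFBP3, which did not pass, are shown because Twist factors bind E-boxes, the motif CANNTG. They are RefSeq windows of 300 bases, from 250 before to 50 after the start site, read along the gene's strand, in build GRCh38.p14. IGFBP4 is at chr17:40443200-40443499 on the plus strand and IGFBP3 at chr7:45921223-45921522 on the minus strand. Capitals mark CANNTG, which reads as itself on both strands.
IGFBP4: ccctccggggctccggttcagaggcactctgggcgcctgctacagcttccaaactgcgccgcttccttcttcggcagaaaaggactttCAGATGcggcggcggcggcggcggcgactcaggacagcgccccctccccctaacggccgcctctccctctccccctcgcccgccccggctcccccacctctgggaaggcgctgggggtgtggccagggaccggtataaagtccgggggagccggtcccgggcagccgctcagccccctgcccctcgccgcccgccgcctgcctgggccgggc
IGFBP3: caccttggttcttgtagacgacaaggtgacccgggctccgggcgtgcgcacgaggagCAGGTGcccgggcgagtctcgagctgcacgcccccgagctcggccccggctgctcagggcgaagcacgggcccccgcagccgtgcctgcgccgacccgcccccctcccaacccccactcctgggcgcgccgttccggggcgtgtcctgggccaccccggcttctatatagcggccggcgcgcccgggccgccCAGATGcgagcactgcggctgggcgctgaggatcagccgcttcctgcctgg
The IGFBP4 window held 1 E-box, CAGATG, whose first base lies 162 bases before the start site. The IGFBP3 window held 2, a CAGGTG whose first base lies 193 bases before the start site and a CAGATG that begins at the last base before it. CANNTG occurred in 68.7% of all 35116 RefSeq windows of this length. CATATG, or CAGATG in either orientation (CATCTG on the opposite strand), forms reported as preferred by Twist and a subset of CANNTG, occurred in 17.1%. Of the 10 genes 9 had a window (IGFBP7 had none), and IGFBP2 had 3 of them, which gave 11 windows. CANNTG was present in 8 of these 11 and the Twist-preferred forms in 2, those of IGFBP4 and IGFBP3. These matches describe letters in a window, and binding of Twist to them was not tested.

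The adaptors were slightly higher in the TwistER arrays without passing the test. IRS2, the adaptor whose gene FOXO factors activate, read 5.51, 5.54 and 5.54 in TwistER, against 5.15, 5.26 and 5.33 in GFP. The groups did not overlap, and the TwistER arrays lay close together. The IRS2 difference was 0.28 ± 0.10 (SE, 95% interval 0.04 to 0.51), or 1.21-fold, with a limma adjusted p of 0.157. IRS1, a major substrate of both receptors, read 6.16, 6.64 and 6.26 in TwistER, against 5.90, 6.15 and 6.05 in GFP. The lowest TwistER array lay just above the highest GFP array, at 6.1553 against 6.1542, and TwistER replicate 2 was high. The IRS1 difference was 0.32 ± 0.15 (limma adjusted p = 0.272), and 0.17 without TwistER replicate 2.

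The receptors showed no difference past the test. INSR, the insulin receptor, read 4.26, 3.96 and 4.01 in TwistER and 4.17, 4.14 and 3.93 in GFP. Its group means were 4.08 ± 0.16 and 4.08 ± 0.13 (TwistER and GFP, SD, n = 3 each), and the 95% interval of the difference ran from -0.29 to 0.29. The INSR difference was 0.048 without GFP replicate 1. INSR was dim as well, with a mean at percentile 22.8 of all genes. The array does not tell the receptor's splice forms apart in these values.

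IGF1R, the IGF1 receptor, read 7.65, 7.72 and 7.72 in TwistER and 8.14, 7.87 and 7.67 in GFP on its brighter probe set. The TwistER arrays lay close together near the lowest GFP array. The difference was -0.20 ± 0.14 (SE, 95% interval -0.50 to 0.11, limma adjusted p = 0.480). IGF1R was the 1 gene of the 9 with several probe sets, and the other one differed in sign over all 6 arrays. The dimmer IGF1R probe set read 7.21, 7.36 and 7.30 in TwistER and 6.78, 7.41 and 7.37 in GFP, a difference of 0.11 ± 0.17 (adjusted p = 0.805 over all probe sets with 1 symbol). GFP replicate 1 was the highest of the 6 arrays on the brighter probe set and the lowest on the dimmer one. Without it the brighter IGF1R probe set differed by -0.07. On the dimmer one every TwistER array lay below GFP replicates 2 and 3, so its positive difference rested on GFP replicate 1. For all 7 genes that did not pass, the 95% interval of the difference lay within 2-fold either way. So did that of IGFBP4, which rose. INSR and IGFBP5 are among the 7, and both were dim, where differences are compressed.

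**Figure D3:**
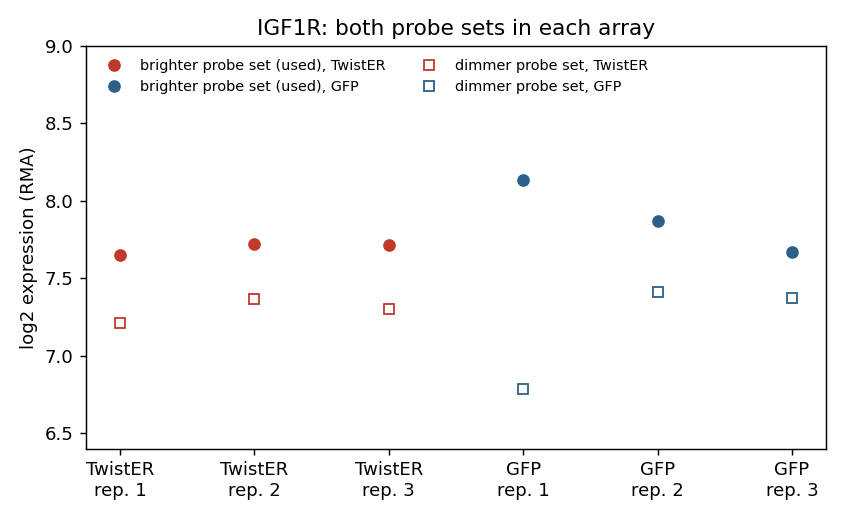
Log2 expression of IGF1R on its brighter probe set (filled circles) and its dimmer one (open squares) in each TwistER array (red) and GFP array (blue). GFP replicate 1 read 8.14 on the brighter and 6.78 on the dimmer probe set, the highest of the brighter and the lowest of the dimmer set.

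Other genes of the pathway were counted in 7 lists. Their counts, and those of the markers above, stand beside 4.72% of all genes that rose and 4.11% that fell. Without GFP replicate 1 these shares were 6.97% and 8.09%. Of 6 measured ligands, clearance receptor and further carriers, 0 rose and 0 fell, with 1 higher and 0 lower at an unadjusted p under 0.05 in limma and a median difference of 0.01. The ligand IGF1 had the largest difference, with 4.06, 4.04 and 3.76 in TwistER and 2.95, 3.67 and 3.50 in GFP. These are dim values in both lines, in which the groups did not overlap. The IGF1 difference of 0.58 ± 0.19 did not pass (limma adjusted p = 0.109), and it was 0.37 without GFP replicate 1. IGF2 and INS had no probe set of their own and are not analysed here.

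Of 11 proteases that cleave IGFBPs, and inhibitors of those proteases, 1 fell and 0 rose (2 lower and 0 higher at an unadjusted p under 0.05 in limma), with a median difference of -0.0076. STC2, a secreted inhibitor of the IGFBP4 protease PAPPA, read 6.68, 6.78 and 6.60 in TwistER and 7.02, 7.58 and 7.58 in GFP. Its difference of -0.71 ± 0.17 passed (adjusted p = 0.0325), but it kept the call in 1 of the 6 fits that left out an array, the one without GFP replicate 1, and the adjusted p reached 0.130. PAPPA itself read 3.49, 3.42 and 4.12 in TwistER and 3.71, 3.80 and 3.74 in GFP, a difference of -0.07 ± 0.18. It was dim, with a mean at percentile 17.6 of all genes. Without GFP replicate 1, 2 genes of the list fell.

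Of 11 cell-surface and matrix partners of the IGFBPs, 2 rose and 1 fell, with a median difference of 0.09. At an unadjusted p under 0.05 in limma, 3 were higher and 1 lower. Fibronectin (FN1), a matrix protein that binds IGFBPs, read 11.84, 11.86 and 11.69 in TwistER, against 9.11, 10.01 and 9.93 in GFP, a difference of 2.12 ± 0.22. Osteopontin (SPP1) read 4.11, 4.58 and 4.61 in TwistER, against 5.26, 5.49 and 5.60 in GFP, a difference of -1.02 ± 0.16. Both calls held with any array left out. LRP1, a scavenger receptor reported to bind IGFBP3, rose by 0.54 ± 0.14 with an adjusted p of 0.0494. LRP1 likewise kept its call in 1 of those 6 fits, without GFP replicate 1.

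Of 22 other adaptors and brakes acting at the receptors, 4 rose and 0 fell (6 higher and 1 lower at an unadjusted p under 0.05 in limma), with a median difference of 0.15. ENPP1, a membrane enzyme that inhibits the insulin receptor, read 9.43, 9.54 and 9.40 in TwistER, against 8.98, 8.49 and 8.60 in GFP, a difference of 0.76 ± 0.14. GRB10, an adaptor that binds and restrains IGF1R and INSR, read 6.21, 6.64 and 6.45 in TwistER, against 5.73, 5.74 and 5.86 in GFP, a difference of 0.66 ± 0.13. The groups were separate in both. The docking protein GAB1 rose by 0.59 ± 0.11, and the adaptor SHC1, named after its values were seen, by 0.53 ± 0.12. All 4 calls were lost without TwistER replicate 2, with adjusted p-values of up to 0.104. Of the list, 1 gene rose without TwistER replicate 1, 1 without GFP replicate 2 and 2 without TwistER replicate 3.

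Of 24 PI3K, AKT and mTOR components, 1 rose and 1 fell, with a median difference of 0.02. At an unadjusted p under 0.05 in limma, 3 were higher and 2 lower. DEPTOR, an inhibitor of mTOR, read 7.49, 7.57 and 7.48 in TwistER, against 5.23, 6.05 and 6.21 in GFP. PIK3R3, a regulatory subunit of PI3K, read 8.31, 8.29 and 8.39 in TwistER, against 9.34, 9.41 and 9.36 in GFP. The DEPTOR difference was 1.68 ± 0.23 and the PIK3R3 difference -1.04 ± 0.10. The groups were far apart in both, and both calls held with any array left out. Without GFP replicate 1, 1 component rose and 3 fell.

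Of 19 FOXO factors and genes they are known to activate, 3 rose and 2 fell, with a median difference of 0.06. At an unadjusted p under 0.05 in limma, 5 were higher and 3 lower. SESN3, a stress-induced sestrin and FOXO target, read 10.85, 10.81 and 10.77 in TwistER, against 9.34, 9.04 and 9.11 in GFP, a difference of 1.65 ± 0.12. The receptor ERBB3, another FOXO target, fell by 1.54 ± 0.21 on the log2 scale, with 3.71, 4.15 and 3.95 in TwistER, against 5.04, 5.88 and 5.51 in GFP. BCL6, a transcriptional repressor, rose by 0.73 ± 0.15, a call lost without TwistER replicate 2 or 3 or GFP replicate 2. The remaining calls, CITED2 upward and BCL2L11 downward, are named after their values were seen. The SESN3, ERBB3 and BCL2L11 calls held with any array left out, and the CITED2 call held in 1 of 6 such fits, without GFP replicate 1. Without GFP replicate 1, 6 members of the list rose and 2 fell. Without TwistER replicate 2, TwistER replicate 3 or GFP replicate 2, 1 rose. Of the 3 IGF2 mRNA-binding proteins 0 rose and 0 fell (2 higher and 0 lower at an unadjusted p under 0.05 in limma), and IGF2BP2 had the largest difference, 0.45 ± 0.15 (limma adjusted p = 0.111).

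**Figure D4:**
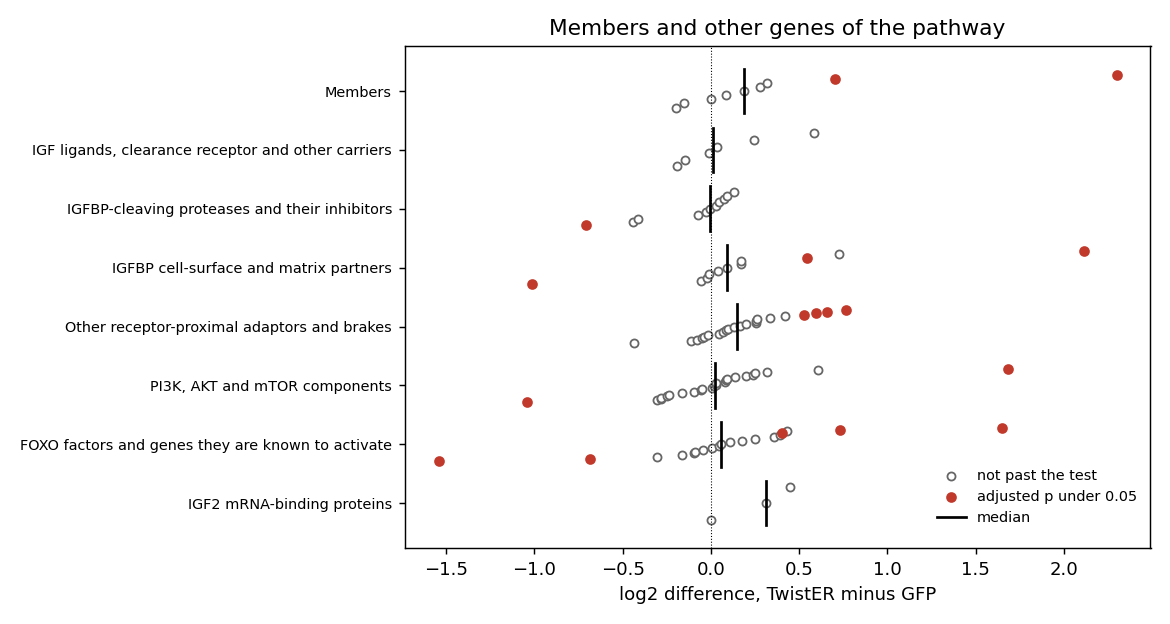
Log2 differences, TwistER minus GFP (horizontal axis), of the 9 measured genes (top row) and of 7 lists of other pathway genes, sorted within each row. Filled red points passed the test, open points did not, and vertical lines mark medians, which run from -0.0076 to 0.31.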

How the data were processed

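Total RNA of 6 H358 samples was hybridised as biotin-labelled cRNA to an Affymetrix array. The authors deposited log2 expression values per probe set made with RMA, per the submitters' processing notes, without a version or settings. RMA subtracts background, gives all arrays 1 distribution of intensities and summarises probes, so a shift of the whole transcriptome would not show. Groups came from the treatment label. Titles name biological replicates without saying whether cultures were separate, so the p-values reflect the spread between samples, which may be technical.

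Of 33297 probe sets, 19460 had 1 gene symbol in the platform annotation, 1754 several and 12083 none there. The brightest per gene gave 18417 genes. All columns belonged to a sample. Each gene was fitted with limma 3.58.1 (R 4.3.3, lmFit and eBayes, 2-sided tests, no covariate), and p-values were adjusted by Benjamini-Hochberg over all genes. The script was tested on simulated data. Lists were described by counts and medians. Beside the 10 genes, a rule named the largest differences past the threshold in each list, at most 3 a list, or the single largest where none passed, and 7 markers. PAPPA, IGFBP1, DCN and the genes so described in the text were added after their values were seen. Genes and lists were chosen with earlier results of these data known. The number of arrays limits the precision, and closely related genes can share probes. Sequences came from RefSeq tables. Python 3.11.15, pandas 2.3.3 and matplotlib 3.10.9 were used.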

Additional observations from a re-analysis of the deposited data

How the results depend on the processing

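IGFBP7 and IGFBP4 rose, and no other of the 9 genes passed, under all 18 alternatives: renormalization, filters on dim genes, probe set rules, variance models, array weights, a block, each array left out and other thresholds. Filters dropped INSR and IGFBP5 at percentile 25, and IRS2 and IGFBP2 too at percentile 50. The IGFBP7 difference ran from 2.18 to 2.44 and the IGFBP4 difference from 0.60 to 0.76, with adjusted p up to 0.00133 and 0.0479. INSR, near 0, was below 0 in 5 of 14. The number of genes changed, 1627, moved more: 831 to 2773 with an array left out, 3268 with array weights (GFP replicate 1 had weight 0.194) and 807 at an adjusted p under 0.01. The cause was not tested. List counts stayed within 1.5 times in 212 of 252 cases, which include counts of 0 that stayed 0. The number that rose ran from 0 to 5 for the other adaptors and brakes. For the FOXO list it ran from 1 to 6. Same-numbered replicates deviated together at r = 0.139, 0.0154 and 0.157, and 5 of 6 arrays correlated best with their own number. Whether same-numbered replicates shared a batch was not tested. With the number as a block 1592 genes changed. Array values give no depth. INSR, IGFBP5, IGF1 and PAPPA were dim, where differences are compressed.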
